A study of Homo sapiens with 6 samples.

Results

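The serum amyloid A genes *SAA1*, *SAA2* and *SAA4* are 3 of the 63241 genes listed for HT-29 cells, a human colorectal adenocarcinoma line that the labels describe as wild-type enterocytes of the colon. They were chosen by gene name, after their values in these libraries were known, so their own levels are given as a description with no test. RNA-seq was performed on 3 Control libraries of cells given buffer and 3 libraries of cells given Amuc_0904 (named A904 in the labels), both for 72 h. Amuc_0904 is an outer membrane protein of the gut bacterium *Akkermansia muciniphila*, made as a tagged recombinant protein in *E. coli* and applied at 0.5 μM. All 6 libraries come from 1 cell line. Neither the labels nor the methods say whether libraries of a group were separate cultures, so p-values measure only the spread between libraries, which may be technical. Values are TPM, a share of all transcripts in a library that is already divided by transcript length, and the depth behind them is unknown.

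Serum amyloid A proteins are small apolipoproteins that travel in plasma on high-density lipoprotein. *SAA1* and *SAA2* are the acute-phase members: the liver, and epithelia such as that of the gut, switch them on in response to cytokines through NF-κB, STAT3 and C/EBP factors, and their proteins act on leukocytes, carry retinol and bind bacteria. *SAA4* encodes the constitutive member, which is made mainly in the liver and changes little in inflammation. *SAA3P* is a pseudogene in humans.

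Markers of colon epithelium were present in every library. All 10 reached 1 TPM in at least 1 library, and their summed level was 7135 to 7179 TPM in Control libraries, against 7147 to 7980 TPM after Amuc_0904. Of 10 hepatocyte markers, which mark the other main source of serum amyloid A, none reached 1 TPM in any library, and *ALB*, *APOB*, *APOA2*, *APOC3* and *SERPINC1* were listed at 0 in all 6. Hepatocyte markers summed to 0.51 to 1.33 TPM in Control libraries, against 0.50 to 0.88 TPM after Amuc_0904. Of 8 leukocyte markers 4 reached 1 TPM, with *LYZ* making up nearly all of a sum of 2594 to 2637 TPM in Control libraries (2491 to 2710 TPM after Amuc_0904). *CD3E* was listed at 0 in all 6, and *PTPRC* and *CSF1R* stayed at or below 0.02 and 0.14 TPM. The leukocyte marker *CD14*, a co-receptor for lipopolysaccharide that epithelia can also express, was lower in every Amuc_0904 library, at 4.74, 4.76 and 4.65 TPM in Control and 2.79, 1.89 and 2.85 TPM after Amuc_0904 (limma adjusted p = 0.150). Its part in the results was not tested. Of 8 fibroblast and adipocyte markers 3 reached 1 TPM, their sum was 2.78 to 3.52 TPM in Control libraries (2.45 to 3.99 TPM after Amuc_0904), and *ADIPOQ* and *COL1A2* were listed at 0 in all 6. None of 20 genes that every cell uses was listed at 0 in any library, and the lowest of their values was 10.8 TPM. Amuc_0904 replicate 1 lay nearer to Control than replicates 2 and 3 for many genes, and its part in a result is given where it matters. For some genes it lay farthest from Control. Replicates 1, 2 and 3 had 1.73, 3.67 and 4.03 TPM of *CXCL1* and 2.37, 7.20 and 5.31 TPM of *CXCL8*, below Control in each.

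All genes of the family lie within one stretch of chromosome 11 (GRCh38, GENCODE release 29). *SAA1* (ENSG00000173432) lies at chr11:18266174-18269977 on the plus strand. *SAA2* (ENSG00000134339) lies at chr11:18239223-18248643 and *SAA4* (ENSG00000148965) at chr11:18231349-18236893, both on the minus strand. The readthrough gene *SAA2-SAA4* (ENSG00000255071) lies at chr11:18231423-18248635 and overlaps both on the same strand. Their coding sequences are shown because their likeness affects how far reads can separate the members. Reads also come from the noncoding parts of the transcripts, which are not printed. The first 300 coding bases of *SAA1* and *SAA2* from the reference transcripts are printed with the 9 bases that differ between them in capitals. The first 262 coding bases of *SAA4* follow, with the 72 bases that differ from *SAA1* in capitals.
SAA1: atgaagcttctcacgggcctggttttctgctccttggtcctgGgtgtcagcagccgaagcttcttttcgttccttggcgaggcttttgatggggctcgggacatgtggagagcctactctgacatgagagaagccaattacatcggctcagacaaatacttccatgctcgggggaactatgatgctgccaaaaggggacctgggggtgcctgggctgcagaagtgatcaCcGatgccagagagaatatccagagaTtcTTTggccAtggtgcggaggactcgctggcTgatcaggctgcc
SAA2: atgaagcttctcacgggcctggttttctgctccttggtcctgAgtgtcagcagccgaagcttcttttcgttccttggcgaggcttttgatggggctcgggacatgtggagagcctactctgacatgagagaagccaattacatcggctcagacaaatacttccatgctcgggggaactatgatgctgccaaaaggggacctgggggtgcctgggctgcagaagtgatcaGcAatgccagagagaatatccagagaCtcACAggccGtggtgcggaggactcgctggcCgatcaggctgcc
SAA4: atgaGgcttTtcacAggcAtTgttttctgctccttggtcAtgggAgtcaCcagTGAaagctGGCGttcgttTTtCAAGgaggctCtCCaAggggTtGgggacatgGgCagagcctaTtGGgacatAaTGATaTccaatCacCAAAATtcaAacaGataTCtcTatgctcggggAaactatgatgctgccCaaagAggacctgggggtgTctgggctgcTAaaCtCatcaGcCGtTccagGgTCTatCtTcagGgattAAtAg

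*SAA1* and *SAA2* both have a coding sequence of 369 bases, of which 358 are identical (97.0%). *SAA4* is longer, at 393 bases, and shares 73.2% of its aligned bases with *SAA1* and 72.9% with *SAA2*. Over the whole reference transcripts, 37 of the 466 stretches of 150 bases in *SAA1*, the length of 1 read, also occur without a mismatch in *SAA2* (7.94%). No stretch of 50, 75 or 150 bases of *SAA1* or *SAA2* occurs in *SAA4*. The division of reads between *SAA1* and *SAA2* is therefore uncertain where the stretches are shared. Reads of *SAA2* and *SAA4* can also be shared with the overlapping readthrough gene.

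*SAA1* was the most abundant member in Control cells and was listed at 0 in all 3 Amuc_0904 libraries. Its level was 44.29, 46.09 and 39.16 TPM in Control replicates 1, 2 and 3, a mean of 43.2 ± 3.60 TPM (SD, n = 3). The Control values lay close together and far above 0, so the groups did not overlap. In Control libraries *SAA1* stood above 76.6% to 79.8% of the 14323 to 14340 genes with at least 1 TPM. No fold change is given against a group listed at 0. In RNA of a whole culture, fewer *SAA1*-expressing cells and less *SAA1* RNA per cell cannot be told apart.

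*SAA2* showed the same pattern at a lower level. It was measured at 9.50, 12.21 and 8.47 TPM in Control replicates 1, 2 and 3 (10.1 ± 1.93 TPM, SD, n = 3) and was listed at 0 in each Amuc_0904 library. In Control libraries it stood above 38.7% to 47.2% of the genes with at least 1 TPM. The ratio of *SAA1* to *SAA2* TPM was 4.66, 3.77 and 4.62 in Control replicates 1, 2 and 3, or 4.35 ± 0.503 (SD, n = 3). Their sum was 53.8, 58.3 and 47.6 TPM in the same libraries. Control replicate 2 had the highest value of both genes and Control replicate 3 the lowest, and the 3 values of *SAA1* did not overlap with those of *SAA2*.

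*SAA4*, the constitutive member, was barely detected. Control replicates 1, 2 and 3 had 0, 0.75 and 0.18 TPM, and all 3 Amuc_0904 libraries were listed at 0. Because Control replicate 1 was also at 0, the groups overlapped. The readthrough gene *SAA2-SAA4* had 0.14, 0.21 and 0 TPM in Control replicates 1, 2 and 3 and 0 in each Amuc_0904 library. Both entries of the pseudogene *SAA3P* were listed at 0 in all 6 libraries. *SAA1* and *SAA2*, 2 of the 3 members, passed the filter of at least 1 TPM in at least 3 libraries, and they passed it through the Control libraries alone.

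**Figure D1:**
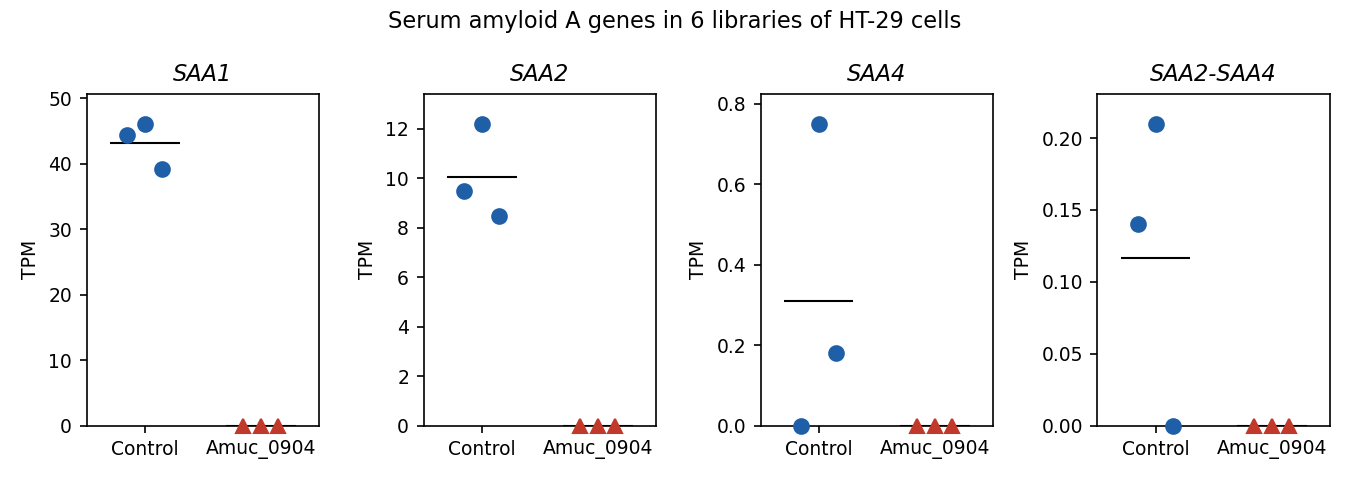
TPM of *SAA1*, *SAA2*, *SAA4* and the readthrough gene *SAA2-SAA4* in each library, each panel with its own axis from 0. Points are single libraries (circles for Control, triangles for Amuc_0904) and lines are group means. All Amuc_0904 points lie at 0, while the Control points of *SAA1* lie between 39.16 and 46.09 TPM and those of *SAA4* include a 0.

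A change from a measured level to 0 in every treated library was rare among all genes. Of the 13467 genes with at least 1 TPM in each Control library, 4 were listed at 0 in each Amuc_0904 library (0.0297%). These were *SAA1*, *SAA2*, a *U2* small nuclear RNA entry at 2.30, 2.27 and 12.43 TPM in the Control libraries, and the processed pseudogene ENSG00000275400 at 2.64, 1.31 and 4.0 TPM. Of the 10057 genes with at least 5 TPM in each Control library, *SAA1* and *SAA2* were the only ones listed at 0 in each Amuc_0904 library, and 4 were at 0 in any of them. As the members were selected on these values, the counts describe the pattern and test nothing.

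Low values were recorded in the Amuc_0904 libraries as in Control. Among 2101 protein-coding genes with an exon length of 500 to 1500 bases, a range that holds *SAA1* (796) and *SAA4* (727) but not *SAA2* (2227, all its annotated exons joined), the lowest value above 0 was 0.01 TPM in every library. Of these genes, 154, 145 and 146 had values above 0 and below 0.2 TPM in Amuc_0904 replicates 1, 2 and 3. In Control replicates 1, 2 and 3 the numbers were 142, 160 and 134. Without read counts, no upper limit can be set for *SAA1* or *SAA2* in the libraries where they were listed at 0.

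**Figure D2:**
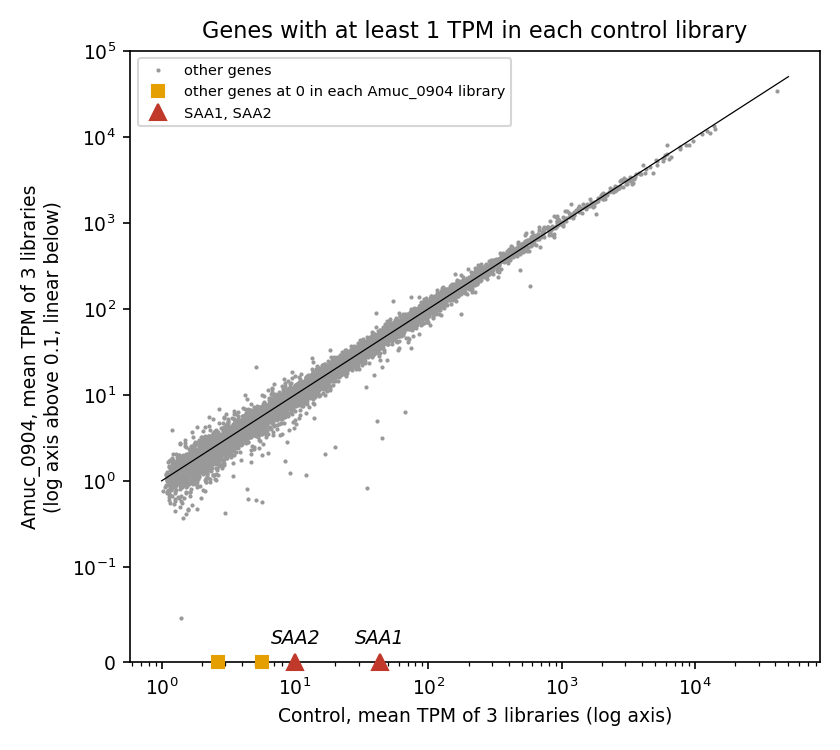
Mean TPM in Amuc_0904 (3 libraries) against mean TPM in Control (3 libraries) for the 13467 genes with at least 1 TPM in each Control library. Both axes are logarithmic, except that the vertical one is linear below 0.1 to show 0, and the line marks equal values. *SAA1* and *SAA2* (triangles) lie at 0 on the vertical axis at Control means of 43.2 and 10.1 TPM, to the right of the other 2 genes at 0 (squares).

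Apart from *SAA2*, no tested gene near *SAA1* on the chromosome was listed at 0 in all Amuc_0904 libraries. Of 41 other annotated genes within 500 kb of *SAA1*, 10 had enough expression to be tested, and none passed an adjusted p under 0.05 by limma on log2(TPM + 1) with Benjamini-Hochberg adjustment over 14333 genes. Among all tested genes, 24 fell (0.167%), *SAA1* and *SAA2* included by the choice of members, and 10 rose (0.0698%). Before adjustment, 2 of the 10 were higher at p under 0.05 and none was lower, beside 1426 higher (9.95%) and 841 lower (5.87%) of all tested genes, and their median log2 fold change was 0.12, beside 0.0015 over all tested genes.

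*HPS5*, which encodes a subunit of a lysosome-related organelle biogenesis complex, lies with its lowest coordinate 12.5 kb above that of *SAA1*. It had 7.74, 8.43 and 8.24 TPM in Control and 8.56, 9.20 and 8.01 TPM in Amuc_0904 libraries, with a log2 fold change of 0.07 (95% interval −0.12 to 0.26). *GTF2H1*, a subunit of the general transcription and repair factor TFIIH, lies 56.1 kb above it by the same measure and had a log2 fold change of 0.22 (95% interval 0.08 to 0.35, limma adjusted p = 0.232). *SAAL1* (SAA-like 1), which is not a serum amyloid A apolipoprotein despite its name, had 26.28, 26.40 and 30.55 TPM in Control and 25.39, 38.37 and 36.72 TPM in Amuc_0904 libraries, and the groups overlapped (log2 fold change 0.24, limma adjusted p = 0.469). Without Amuc_0904 replicate 1, 3 of the neighbors rose: *GTF2H1* (log2 fold change 0.24), *LDHA* (0.26) and *SAAL1* (0.43). In that setting 1339 of all 14077 tested genes rose (9.51%).

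**Figure D3:**
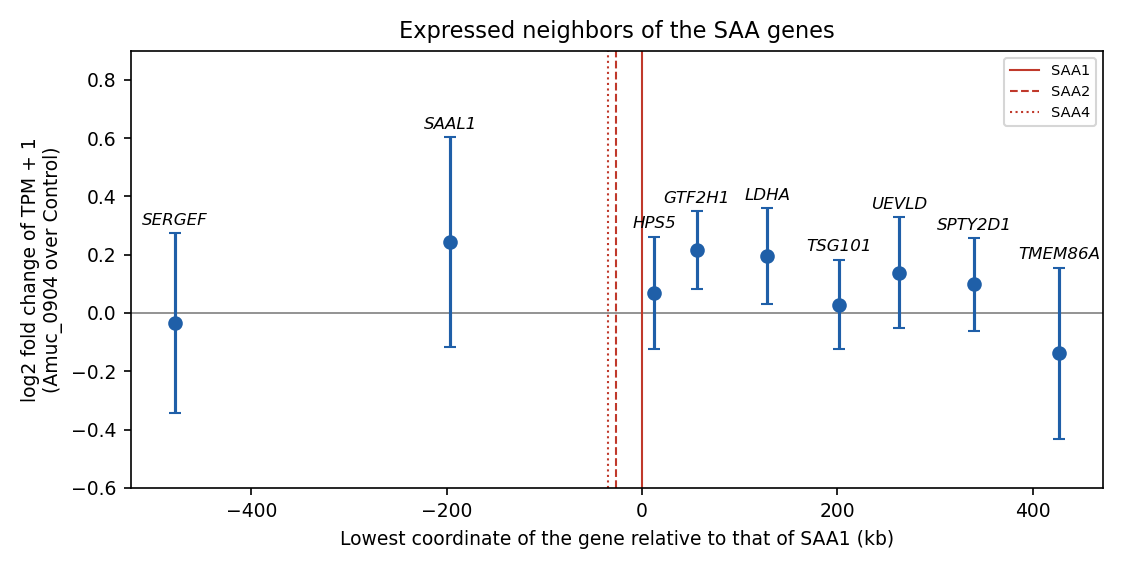
The log2 fold change of TPM + 1 (Amuc_0904 over Control, 3 libraries each) of the 9 tested neighbors with a gene symbol, against the distance of their lowest coordinate from that of *SAA1* in kb. Bars are 95% intervals from limma, and vertical lines mark the same coordinate of *SAA1*, *SAA2* and *SAA4*. The neighbors lie between −0.14 and 0.24, and none passed the adjusted p.

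The lists named next were drawn up with earlier results of these data known, so their counts describe and test nothing. Other genes of the serum amyloid A system were described in 6 lists of 155 genes in all, of which 84 were tested. Of these, 12 fell and none rose, beside 24 (0.167%) and 10 (0.0698%) of the 14333 genes tested. In 36, every Amuc_0904 library lay below every Control library, beside 1088 of all tested genes (7.59%). The median log2 fold change of the 84 genes was −0.16, beside 0.0015 over all tested genes. Leaving out Amuc_0904 replicate 1, 36 fell and 4 rose of 83 tested, beside 1301 that fell (9.24%) and 1339 that rose (9.51%) of 14077 genes in the whole table. Leaving out Control replicate 1, 2 or 3 left 4, 4 and 3 that fell, of 78, 79 and 81 tested. In the whole table, 6, 6 and 7 fell of 14087, 14096 and 14091 tested. Genes that reached 1 TPM only in Control libraries, such as *C3* and *CXCL2*, were not tested there. *CXCL2* passed in all 8 alternatives in which it was tested. Without Amuc_0904 replicate 3, 7 of 83 fell, beside 16 of 14155 in the whole table.

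Like *SAA1* and *SAA2*, other acute-phase genes are best known from the liver. Of 33 acute-phase genes, 9 were listed at 0 in all 6 libraries and 11 were tested. Of those tested, 2 fell and none rose, beside 0.167% and 0.0698% of all tested genes. Before adjustment, 5 of the 11 were lower and 1 higher by limma at p under 0.05, beside 5.87% and 9.95% of all tested genes. *LCN2*, which encodes an iron-siderophore-binding antimicrobial protein, had 587.27, 599.03 and 552.87 TPM in Control and 238.37, 158.44 and 161.70 TPM in Amuc_0904 libraries. It fell by 1.66 on the log2 scale (SE 0.15, limma adjusted p = 0.0079), and remained well above 0 in all libraries. The complement component *C3* fell from 2.98 ± 0.496 to 0.420 ± 0.132 TPM (SD, n = 3, limma adjusted p = 0.0154). The protease inhibitor *SERPINA3* had 4.60, 4.28 and 4.12 TPM in Control and 1.83, 0.26 and 0.30 TPM in Amuc_0904 libraries, which did not pass (limma adjusted p = 0.140). The complement gene *CFB* had 50.50, 46.50 and 49.96 TPM in Control and 37.05, 16.46 and 23.25 TPM in Amuc_0904 libraries. It did not pass (limma adjusted p = 0.232), but did without Amuc_0904 replicate 1 (0.0029). The most abundant gene of the list, the protease inhibitor *SERPINA1*, had 647.82, 665.07 and 638.07 TPM in Control and 706.10, 617.31 and 604.49 TPM in Amuc_0904 libraries, and the groups overlapped. *IL1RN*, the IL-1 receptor antagonist, had 38.61, 35.40 and 35.71 TPM in Control and 40.84, 40.43 and 41.38 TPM in Amuc_0904 libraries, higher in each but not past the threshold (limma adjusted p = 0.265). The genes at 0 in all 6 libraries included *CRP*, *HP* and *ORM1*. The call for *LCN2* was lost without Control replicate 1, 2 or 3 (limma adjusted p 0.0655 to 0.0844). That for *C3* was lost without Amuc_0904 replicate 2 or 3 (0.0626 and 0.0724) and with replicate number as a block (0.102). *C3* reached 1 TPM only in Control libraries, so it was not tested when any of these was left out. Without Amuc_0904 replicate 1, *SERPINA3* passed at 0.000537.

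Receptors of serum amyloid A and its lipoprotein partners were expressed at very unequal levels. Of 18 such genes, 10 were tested, 1 fell and none rose, beside 0.167% and 0.0698% of all tested genes. *FPR2* and *TLR2*, receptors of serum amyloid A on leukocytes, were listed at 0 in all 6 libraries, and *APOA1*, the main apolipoprotein of high-density lipoprotein, stayed at or below 0.20 TPM. Over the 6 libraries *SCARB2* had 83.57 to 116.17 TPM, *LRP1* 8.66 to 11.98, *AGER* 4.60 to 6.01 and *TLR4* 3.85 to 4.39. The groups overlapped for each of these. *ABCG1*, a cholesterol exporter to high-density lipoprotein, fell from 13.9 ± 1.46 to 5.31 ± 1.36 TPM (SD, n = 3, limma adjusted p = 0.0347). That call was lost without Control replicate 1, 2 or 3 or Amuc_0904 replicate 2 or 3 (adjusted p 0.133 to 0.213). *SCARB1*, a receptor for high-density lipoprotein and serum amyloid A, had 23.98, 23.81 and 23.10 TPM in Control and 26.02, 31.05 and 31.20 TPM in Amuc_0904 libraries (limma adjusted p = 0.232, and 0.00441 without Amuc_0904 replicate 1). *LCAT* (mean 3.50 TPM in Control and 2.00 after Amuc_0904) and *ABCA1* (1.64 and 0.75) were lower in every Amuc_0904 library. They did not pass (limma adjusted p = 0.205 and 0.215), but did without Amuc_0904 replicate 1 (0.0364 and 0.0197). Before adjustment, 3 of the 10 were lower and 1 higher by limma at p under 0.05, beside 5.87% and 9.95% of all tested genes.

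None of the 19 tested transcription factors known to act at serum amyloid A promoters passed, out of 21 listed, although without adjustment 4 were lower and 1 was higher by limma at p under 0.05, beside 5.87% lower and 9.95% higher of all tested genes. *STAT3*, the factor downstream of IL-6 and IL-22, had 32.60, 31.98 and 32.62 TPM in Control and 31.45, 31.13 and 32.76 TPM in Amuc_0904 libraries. The NF-κB subunit *RELA* had 43.63, 43.21 and 44.05 TPM in Control and 43.71, 42.22 and 38.62 TPM in Amuc_0904 libraries. The groups overlapped for both. *RELB*, a subunit of the noncanonical NF-κB pathway, had 8.61, 9.13 and 8.70 TPM in Control and 7.22, 5.89 and 5.44 TPM in Amuc_0904 libraries (limma adjusted p = 0.217, and 0.00667 without Amuc_0904 replicate 1). *CEBPB* (mean 50.4 TPM in Control and 44.9 after Amuc_0904), *ELF3* (170.4 and 150.3) and *NFKB2* (31.9 and 22.4) were lower in every Amuc_0904 library. They did not pass (limma adjusted p = 0.248, 0.249 and 0.270), but did without Amuc_0904 replicate 1 (0.0404, 0.00578 and 0.00723). In 5 of the 19, every Amuc_0904 library lay below every Control library, and in 2 above, beside 1088 and 1919 of 14333 tested genes. These are RNA levels and say nothing of the factors' activity.

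Of 33 cytokines and receptors upstream of serum amyloid A, 19 were tested and none passed, while without adjustment 5 were lower and 4 higher by limma at p under 0.05, against the same 5.87% and 9.95%. *IL22*, *IL17A* and *IL17F* were listed at 0 in all 6 libraries, and *IL6* had 0.20 TPM in Control replicate 2 and 0 elsewhere. The receptor chain *IL22RA1*, through which IL-22 acts on epithelia, had 12.56, 10.93 and 11.37 TPM in Control and 12.37, 10.57 and 11.20 TPM in Amuc_0904 libraries. *IL1B* was measured at 0.33, 0.31 and 0.54 TPM in Control and at 0, 0.04 and 0 TPM in Amuc_0904 libraries, too low to be tested. *NFKBIA*, the NF-κB inhibitor that NF-κB itself induces, had 26.74, 26.35 and 27.50 TPM in Control and 21.11, 17.44 and 19.26 TPM in Amuc_0904 libraries (limma adjusted p = 0.111, and 0.00371 without Amuc_0904 replicate 1).

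Epithelial genes that are induced, like *SAA1* and *SAA2*, by IL-22, IL-17 and IL-1 held 11 of the 12 that fell in the 6 lists. Of 36 such genes, 7 were listed at 0 in all 6 libraries and 21 were tested. Of those tested, 11 fell and none rose, beside 0.167% and 0.0698% of all tested genes. In 19, every Amuc_0904 library lay below every Control library, beside 7.59% of all tested genes. The list includes *LCN2* and *C3*, and its median log2 fold change was −0.98, beside 0.0015 over all tested genes. *CCL20*, a chemokine for CCR6-bearing lymphocytes, had a Control level near that of *SAA1*, at 34.06, 32.91 and 37.53 TPM, and 0.54, 1.37 and 0.58 TPM in Amuc_0904 libraries (limma adjusted p = 0.000121). The neutrophil chemokine *CXCL1* had 45.17, 44.31 and 44.68 TPM in Control and 1.73, 3.67 and 4.03 TPM in Amuc_0904 libraries. Unlike *SAA1*, both stayed above 0 in every Amuc_0904 library. *PIGR*, the receptor that carries IgA across the epithelium, fell from 19.95 ± 0.894 to 2.48 ± 1.33 TPM (SD, n = 3). *DUOXA2*, the maturation factor of an epithelial oxidase, was listed at 0 in all 3 Amuc_0904 libraries, from 0.18, 0.35 and 0.11 TPM in Control. The oxidase gene *DUOX2* had 0.12, 0.25 and 0.12 TPM in Control and 0.55, 0.06 and 0.03 TPM in Amuc_0904 libraries, and these groups overlapped. Both genes were too low to be tested. Without Control replicate 1, 2 or 3, *PIGR* did not pass (limma adjusted p 0.0655 to 0.0787).

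Retinoid transport and signaling genes were included because serum amyloid A proteins carry retinol. None of the 16 tested of 28 genes passed by limma, 4 were lower and 1 higher before adjustment (p under 0.05, against 5.87% lower and 9.95% higher of all tested genes), and the median log2 fold change was −0.03. *STRA6*, the retinol uptake receptor, had 6.92, 8.37 and 6.71 TPM in Control and 6.23, 5.28 and 5.41 TPM in Amuc_0904 libraries (limma adjusted p = 0.258). *DHRS3*, a retinal reductase, had 34.58, 34.63 and 31.88 TPM in Control and 34.41, 17.42 and 17.68 TPM in Amuc_0904 libraries, so that Amuc_0904 replicate 1 lay among the Control values (limma adjusted p = 0.301, and 0.00076 without that library).

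**Figure D4:**
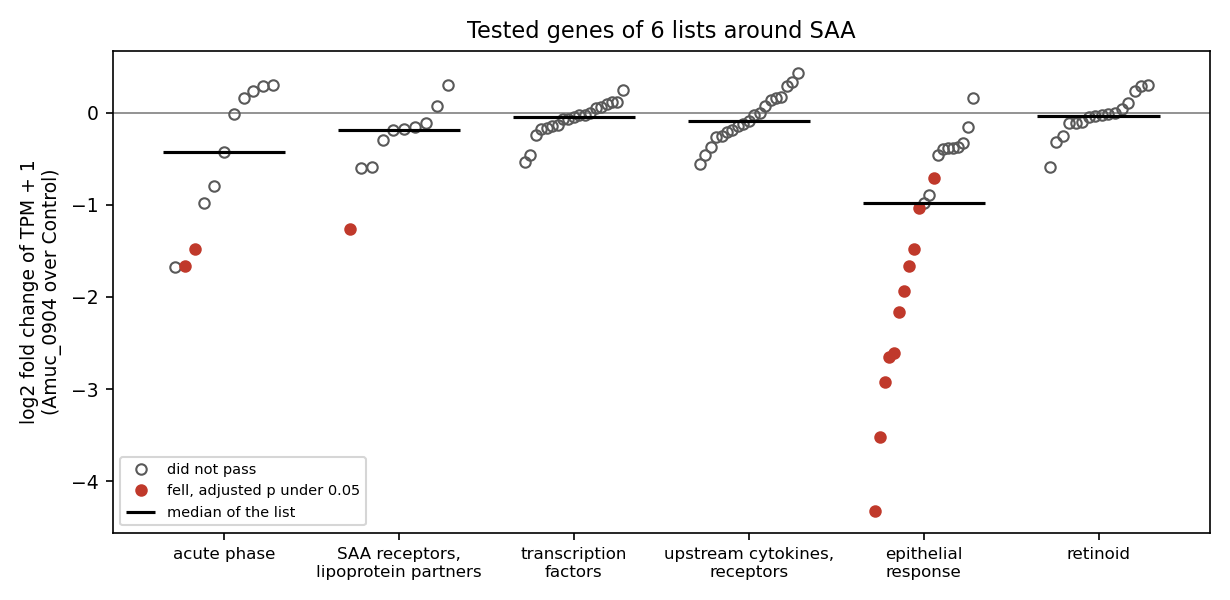
The log2 fold change of TPM + 1 (Amuc_0904 over Control, 3 libraries each) of the tested genes of 6 lists around serum amyloid A, which do not hold *SAA1*, *SAA2* or *SAA4* themselves. Filled points fell at a limma adjusted p under 0.05, open points did not pass, and bars are list medians. The epithelial response list holds 11 of the genes that fell and has a median of −0.98, while the transcription factor and retinoid lists lie around 0.

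The genes whose levels followed *SAA1* most closely were ranked by Pearson's r of log2(TPM + 1) over the 6 libraries, as a description. The 6 points fall into both groups, so a high r mainly marks genes that differed between groups with little spread. Of 14331 tested genes, 8 had r of at least 0.99 and 219 had at least 0.9. The highest among genes with a symbol included *MAFF* (0.997), *IL4I1* (0.996), *CCL20* (0.994), *CXCL6* (0.993), *CEACAM7* (0.9904), *KHNYN* (0.9902) and *RASA1* (0.989).

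These genes were all lower in Amuc_0904 libraries, as *SAA1* was, but by very different amounts, and none of them reached 0. *IL4I1*, a secreted amino acid oxidase, had 4.43, 4.72 and 4.16 TPM in Control and 0.69, 0.44 and 0.71 TPM in Amuc_0904 libraries. *CEACAM7*, an adhesion molecule of colonocytes, had 8.64, 9.16 and 7.28 TPM in Control and 1.33, 1.94 and 1.87 TPM in Amuc_0904 libraries. *MAFF*, a small MAF transcription factor, had 16.51, 16.32 and 16.22 TPM in Control and 13.47, 13.41 and 13.67 TPM in Amuc_0904 libraries. *MAFF*, *KHNYN* and *RASA1* did not pass (limma adjusted p = 0.208, 0.248 and 0.113), but without Amuc_0904 replicate 1 *MAFF* and *RASA1* passed (0.0254 and 0.008).

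**Figure D5:**
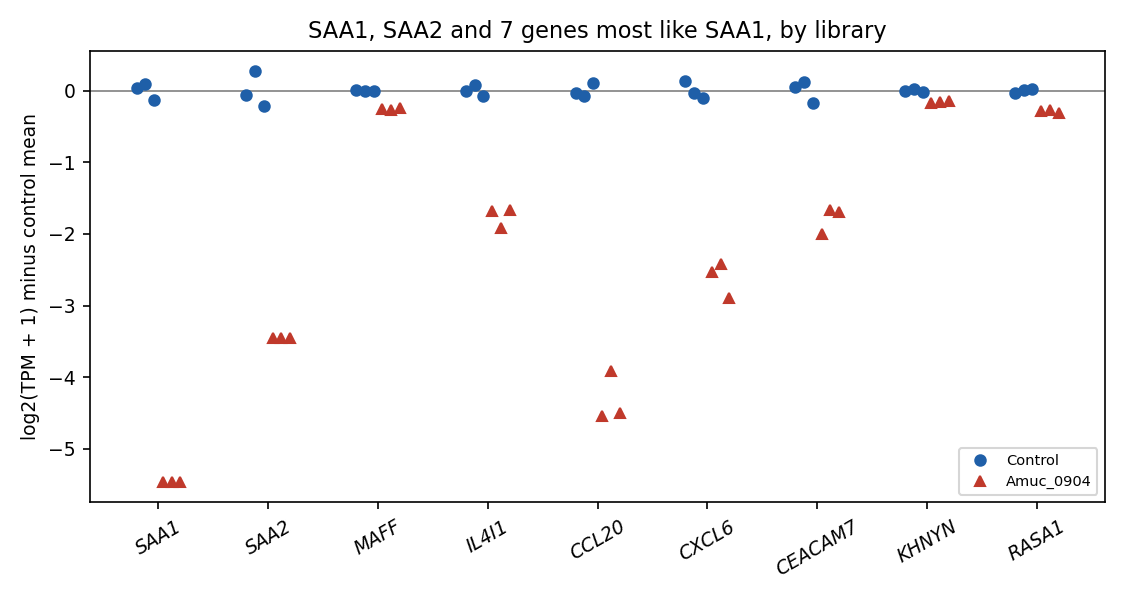
Level of *SAA1*, *SAA2* and 7 of the genes most like *SAA1* in each library, as log2(TPM + 1) minus the mean of the 3 Control libraries, with circles for Control and triangles for Amuc_0904. *SAA1* and *SAA2* lie at one depth in all 3 Amuc_0904 libraries because each was listed at 0. The depth of the other genes ranges from that of *KHNYN* (log2 fold change −0.16) to that of *CCL20* (−4.32).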

How the data were processed

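RNA-seq libraries of HT-29 cells, 3 Control and 3 Amuc_0904, were grouped by their labels. The authors trimmed reads of 150 bases with SeqPrep and Sickle, aligned them with HISAT2, assembled them with StringTie and deposited TPM per gene, and the submitters' processing notes also name RSEM and edgeR, with no version. Those notes name GRCm38.p6, a mouse build, whereas the gene identifiers are human, so the build behind the values is uncertain. Positions and sequences are from GENCODE release 29 (GRCh38), which matched 58228 of 63241 identifiers. Another 25 lines of spilled annotation text were left out. How reads that match several genes were divided is not given in the sources used here.

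The 14333 genes that reached 1 TPM in 3 or more libraries were log2-transformed after adding 1 TPM and compared in limma 3.58.1 (R 4.3.3; mean-variance trend, robust empirical Bayes, condition as the only term), and p-values were adjusted by Benjamini-Hochberg at 0.05. Fold changes on this scale understate those of low genes. TPM are not counts, so no count test was run, and neither depth nor counting error is known. An exact permutation test of 3 against 3 libraries cannot give a two-sided p below 0.1. The procedure was tested on simulated data in which all 6 libraries had the same spread, modeled on Control. That setting does not cover the deviation of Amuc_0904 replicate 1. Coding sequences were aligned with Biopython 1.88.

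The members and lists were chosen with earlier results of these data known. Named genes are those whose symbol starts with SAA, tested genes within 500 kb of *SAA1*, per list the called members and up to 4 with the smallest p, the 8 symbols most correlated with *SAA1*, 1 of which is not reported here, and genes at 1 TPM or more in each Control and 0 in each Amuc_0904 library. Genes named outside this rule, such as *SERPINA1*, *IL1RN*, *STAT3*, *RELA*, *IL22RA1*, *IL1B*, *DUOXA2* and genes listed at 0, were chosen after their values were seen. The 12 alternatives comprised another pseudocount, 2 filters, limma array weights, a block for replicate number, median-of-ratios scaling and the omission of each library.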

Additional observations from a re-analysis of the deposited data

How the results depend on the processing

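With *SAA1*, *SAA2* and *SAA4* at 0 in every Amuc_0904 library, no alternative could change the direction of their difference, so that it says nothing of stability. Their differences on the log2(TPM + 1) scale, −5.46, −3.45 and −0.35, became −8.75, −6.65 and −1.52 with a pseudocount of 0.1. They depend on the pseudocount and are therefore not fold changes. Leaving out 1 library at a time gave −5.53 to −5.41, −3.56 to −3.32 and −0.52 to −0.12. Filters, weights and the block do not enter these plain differences.

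Among all tested genes, 34 were called, 18 without a filter, 2371 with library weights, and 9 to 2640 with 1 library left out, the highest without Amuc_0904 replicate 1, whose weight was 0.224. In the 6 lists, 12 genes were called, 40 with library weights and 3 to 40 with 1 library left out. Genes that reached 1 TPM only in Control libraries were not tested when a Control library was left out. Around *SAA1*, 0 genes were called, 3 with library weights, all of which rose, and 0 to 3 with 1 library left out. With the replicate number as a block, 21 genes were called over the whole table and 8 in the lists. Libraries that share a number did not deviate together (r = 0.046, −0.039 and −0.005), and pairs with different numbers gave −0.042 to 0.054. Deviations from a mean of only 3 libraries cannot show whether the numbers pair cultures.

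Of 504 values of 44 named genes under the alternatives, 413 kept their direction and side of the threshold, 43 no longer passed, 40 newly passed and 8 changed sign. The sign changed for 3 neighbors of *SAA1* with differences near 0 or wide intervals. With 1 library left out, *SERGEF* ranged from −0.145 to 0.076, *TSG101* from −0.010 to 0.079 and ENSG00000256006 from −0.119 to 0.840, and *TSG101* was −0.006 with library weights. TPM without counts set no limit on *SAA1* or *SAA2* where they are listed at 0.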

Other observations

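The reverse of the pattern of *SAA1* and *SAA2* also occurred. Of 13330 genes with at least 1 TPM in each Amuc_0904 library, 6 were listed at 0 in each Control library. *SEPTIN14P22*, an unprocessed pseudogene, had 27.56, 26.67 and 36.19 TPM in Amuc_0904 replicates 1, 2 and 3. The processed pseudogenes *MLLT10P1* and *PPIAP36* had 2.43, 4.75 and 2.63 TPM and 1.71, 4.18 and 2.78 TPM. ENSG00000230118, also a processed pseudogene, had 2.65, 5.17 and 2.87 TPM. At least 4 of these 6 entries are pseudogenes, whose reads can be shared with near-identical copies, and the other two have no type in the annotation used here. *SAA1* and *SAA2* are the protein-coding genes among the 4 entries with the opposite pattern.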
